A study of Macaca mulatta with 45 samples.

Results

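Fractionated whole-brain irradiation (fWBI) was set against control in the hippocampus of rhesus macaques, across all genes measured by total RNA sequencing. The comparison used the 5 libraries titled as hippocampus of fWBI animals and the 5 titled as hippocampus of control animals, which were 10 of the 45 libraries of the series, chosen by their titles alone. The fWBI animals had received 40 Gy to the whole brain in 8 fractions of 5 Gy, 12 months before necropsy. A second irradiated group, total body irradiation (TBI), had received a single dose between 6.75 and 8.05 Gy, 6 to 9 years before necropsy, and its 5 hippocampus libraries entered the same fit. The control animals were themselves irradiated, with 10 Gy to the thorax and a labelled brain dose of 0.1 Gy, so the comparison is between brains that received a high and a very low dose and not with animals that were never exposed. Each of the 15 animals gave 1 library of hippocampus, 1 of dorsolateral prefrontal cortex (Brodmann area 46) and 1 of deep white matter (centrum semiovale), after its vessels had been flushed with saline. The question, from the design text, is how irradiation of the brain differs from control within a region.

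The hippocampus forms and retrieves memories, and new granule neurons are added to its dentate gyrus after birth in many mammals. Dividing precursor cells, among them neural progenitors and oligodendrocyte precursors, are sensitive to radiation, and microglia, the resident macrophages of the brain, change their gene expression after injury: genes of surveying cells are turned down while genes of antigen presentation, phagocytosis and complement are turned up. Endothelial cells, pericytes and the fibroblasts of meninges and vessels lay down the basement membranes and collagens around brain vessels. Whole-brain irradiation is given for brain tumours, and late effects on memory and on white matter are known complications.

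Total counts per library were 8256801 to 12541507 in fWBI animals, 9176522 to 10637892 in TBI animals and 7356658 to 10211144 in control animals. Levels of single genes are given in CPM (counts of a gene scaled to library size, after TMM normalisation). CPM is not corrected for gene length, so levels are compared between animals and not between genes. Sums over a gene list are scaled to library size without TMM. The regional medians of this paragraph come from TMM scaling of all 45 libraries, so both differ slightly from the values of single genes. The tissue carried genes of hippocampal neurons, which were looked at as a check and not as a result. In control animals the median level of FIBCD1, a gene of CA1 neurons, was 23.3 CPM in hippocampus and 1.23 CPM in prefrontal cortex, and PROX1, a transcription factor of dentate granule cells, had medians of 60.7 and 12.1 CPM in those regions. CALB1, C1QL2 and ZBTB20 were likewise higher in control hippocampus than in prefrontal cortex, whereas WFS1 was not (57.2 against 70.5 CPM). In control white matter the medians were 58.0 CPM for PROX1 and 140 CPM for ZBTB20 (143 in hippocampus). These genes thus did not separate hippocampus from white matter. FIBCD1 (1.1 CPM), CALB1 (9.61 CPM) and C1QL2 (8.33 CPM) were lower in white matter. A pair of libraries stood apart in genes of the choroid plexus and ependyma, tissue that lies next to the hippocampus. The 7 listed genes of these tissues summed to 90.2, 35.6, 31.6, 91.4 and 295 CPM in fWBI animals 1 to 5 and to 62.8, 448, 81.4, 38.9 and 39.9 CPM in control animals 1 to 5, so fWBI animal 5 and control animal 2 held the most of this RNA in their groups. Myelin genes also varied within each group, with sums of 1860 to 5690 CPM in fWBI animals and 1430 to 6460 CPM in control animals. Pan-neuronal genes summed to 11700 to 14500 CPM in fWBI animals and 12900 to 14500 CPM in control animals.

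In hippocampus of fWBI animals, 2 of 7 tested genes of homeostatic microglia and 3 of 15 of oligodendrocyte precursors were lower. Higher were 3 of 11 genes of MHC class II antigen presentation, 4 of 15 pattern and Fc receptors, 3 of 13 complement genes, 5 of 15 collagens and the fibronectin gene FN1. Of 15357 genes tested, 79 were higher and 32 lower in fWBI animals, which is 0.514% and 0.208% of the genes tested (0.723% in all). Of the 111, 24 had no symbol, 0.612% of such IDs, and the 87 with one were 0.761% of theirs. An unadjusted p under 0.05 was found for 1710 genes (11.1%). The changes that passed were large: 59 of the 79 rises and 17 of the 32 falls were at least 2-fold, and the median log2 fold change was 1.47 among the rises and -1.05 among the falls. Among the rises the median gene had 16.4 CPM in fWBI animals and 4.56 CPM in control animals. In 73 of the 79 rises every fWBI library lay above every control library, and in 28 of the 32 falls every fWBI library lay below every control library. Over all genes tested such a separation was seen upwards in 1.43% and downwards in 0.873%. The 111 genes were selected by a test on these same libraries, so their large folds and separated groups are no added support. The median log2 fold change of all genes was -0.0082, and 48.2% of them lay above 0. In this bulk tissue, fewer cells of a type and less RNA per cell cannot be told apart. Fold changes are log2 values, fWBI over control, given with a standard error (SE) for 5 animals in each group. Adjusted p comes from the quasi-likelihood test of edgeR after Benjamini-Hochberg adjustment over all genes tested, with a threshold of 0.05.

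**Figure D1:**
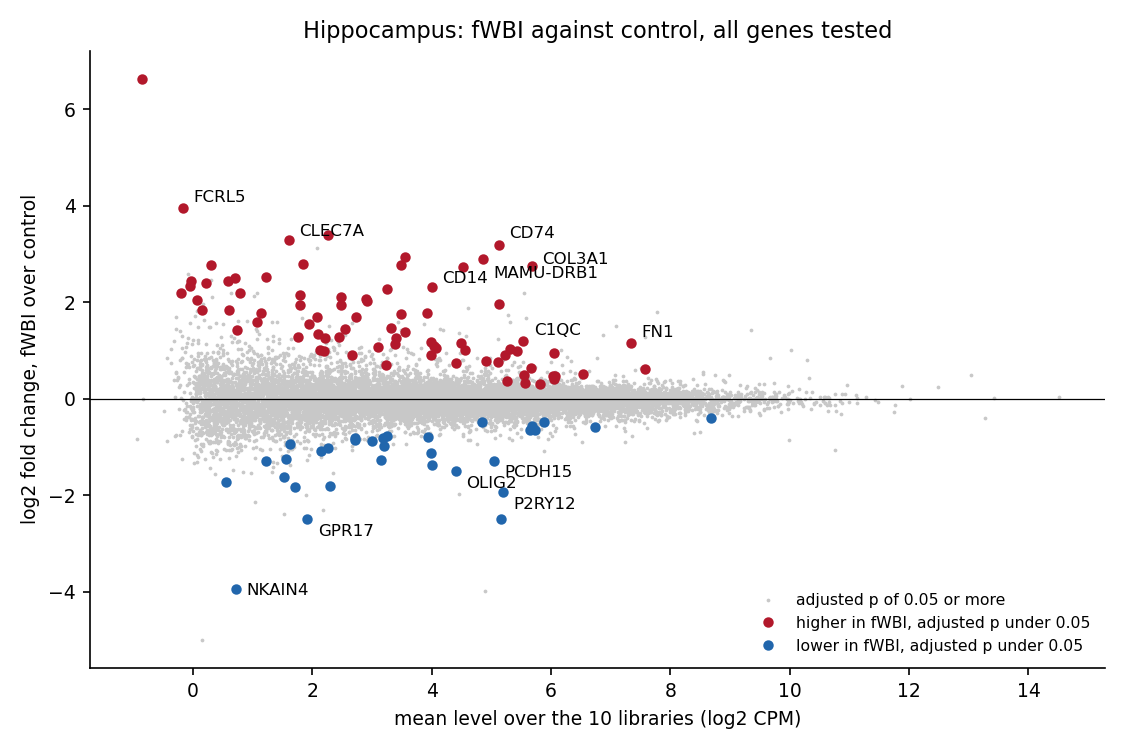
Each point is 1 of the 15357 genes tested, placed by its mean level over the 5 fWBI and 5 control libraries of hippocampus (log2 CPM, horizontal) and its log2 fold change, fWBI over control (vertical), with genes past the threshold in red where higher and blue where lower in fWBI. NKAIN4 lies lowest of the coloured points at -3.94 and CD74 at 3.19 stands high at a middle level, while the topmost point is an ID with 0 counts in the control libraries, whose height depends on the fit and is no measured fold.

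Surveying microglia are marked by receptors that sense their surroundings. P2RY12 (ENSMMUG00000001105), the receptor for ADP by which resting microglia extend their processes, had 22.7, 17.3, 16.4, 16.6 and 20.6 CPM in fWBI animals and 83.8, 69.8, 71.0, 66.4 and 66.8 CPM in control animals. The groups were far apart, and the highest fWBI library had less than any control library. The log2 fold change was -1.93 ± 0.17 (adjusted p = 1.97e-05), a level 3.81-fold lower. SELPLG (ENSMMUG00000031572), the selectin ligand PSGL-1, which in the brain is carried mainly by microglia, had 15.6, 11.3, 7.20, 7.39 and 9.25 CPM in fWBI animals and 31.6, 29.1, 25.7, 23.9 and 20.5 CPM in control animals. Again no fWBI library reached the control range, and the change was -1.36 ± 0.21 (adjusted p = 0.00359). RGS10, a regulator of G-protein signalling found in microglia and some neurons, fell by 0.77 ± 0.16 (adjusted p = 0.0239), a call that was lost when fWBI animal 2 or 3 or control animal 1 or 4 was left out (adjusted p = 0.0547 to 0.0753).

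Not every gene of resting microglia was lower. Of the 7 tested genes of the homeostatic microglia list, 2 fell, 0 rose, and the median was -0.49. GPR34, a microglial receptor for lysophosphatidylserine, stood at -0.59 ± 0.14 (adjusted p = 0.0704), with 20.0 to 27.4 CPM in fWBI animals and 29.4 to 40.1 CPM in control animals, ranges that did not overlap. The growth factor receptor CSF1R (0.29) and the lipid receptor TREM2 (0.10) were above 0 without passing the threshold. TREM2 had 3.65 to 6.82 CPM in fWBI animals and 3.29 to 5.84 CPM in control animals. GPR34, CSF1R and TREM2 were picked after their values were seen, to show other members of the list.

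Oligodendrocyte precursors divide and give rise to myelinating cells throughout life. GPR17 (a receptor of precursors that are about to mature) had 0.708, 0.720, 1.51, 2.68 and 2.15 CPM in fWBI animals and 8.50, 8.02, 12.0, 9.74 and 6.64 CPM in control animals. Every fWBI library lay below every control library, at -2.50 ± 0.30 (adjusted p = 0.000521). OLIG2, the transcription factor of the oligodendrocyte lineage, had 17.5, 6.24, 8.82, 11.6 and 21.6 CPM in fWBI animals and 31.6, 35.4, 55.8, 35.4 and 29.5 CPM in control animals. The fWBI values spread over more than a 3-fold range, yet all were lower than the lowest control value, and the change was -1.50 ± 0.27 (adjusted p = 0.0118). CSPG4, the NG2 proteoglycan on the surface of precursors and pericytes, had 8.94, 5.40, 5.46, 5.20 and 3.92 CPM in fWBI animals and 11.0, 9.74, 21.2, 15.6 and 12.6 CPM in control animals (-1.27 ± 0.22, adjusted p = 0.00947). PCDH15, a protocadherin enriched in precursors, had 30.4, 22.9, 25.4, 19.7 and 11.9 CPM in fWBI animals and 52.0, 38.7, 41.3, 51.7 and 84.8 CPM in control animals (-1.28 ± 0.23, adjusted p = 0.0125). For CSPG4 and PCDH15, too, the groups did not overlap. With only the 10 libraries compared in the fit, adjusted p was 0.0737 for OLIG2, 0.0696 for CSPG4 and 0.0833 for PCDH15.

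Across the oligodendrocyte precursor list 3 of 15 tested genes fell and 0 rose, with a median of -0.62, and 2 of the 15 lay above 0. PDGFRA, the receptor for the growth factor PDGF and a widely used marker of these cells, was one that lay above 0. It had 79.5, 97.8, 77.8, 92.8 and 87.5 CPM in fWBI animals and 92.4, 81.6, 79.9, 80.4 and 99.6 CPM in control animals (0.01 ± 0.08, adjusted p = 0.991). The ranges of PDGFRA overlapped almost wholly. VCAN, a matrix proteoglycan made by precursors, stood at -0.76 ± 0.17 (adjusted p = 0.0554) with groups that did not overlap. PDGFRA and VCAN were picked after their values were seen. In the list of committed precursors GPR17 and SOX4 fell (2 of 10, median -0.12). SOX4, a transcription factor of immature neural and oligodendroglial cells, changed by -0.80 ± 0.17 (adjusted p = 0.0394), and it did not pass with any 1 of fWBI animals 1, 3 and 4 or control animals 1, 3, 4 and 5 left out (adjusted p = 0.0509 to 0.105). None of the 10 tested genes of mature oligodendrocytes and myelin passed, and their median was -0.04. MBP, myelin basic protein, had 903 to 2482 CPM in fWBI animals and 746 to 3701 CPM in control animals, and stood at -0.25 ± 0.39 (adjusted p = 0.874).

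The most strongly lowered named gene was NKAIN4, whose product interacts with the sodium pump of the cell membrane, and which belongs to the homeostatic astrocyte list used here. It had 0.266, 0.360, 0.232, 0.569 and 0.187 CPM in fWBI animals and 4.19, 7.33, 4.77, 4.53 and 5.31 CPM in control animals. The fold change was -3.94 ± 0.36 (adjusted p = 3.25e-05), with levels near 0 in all fWBI libraries. No other of the 14 tested genes of that list passed, and the list's median was 0.20. C1QL1, a secreted C1q-like protein that shapes synapses in the cerebellum of mice and is also made by oligodendrocyte precursors, had 0.974, 1.44, 0.813, 2.11 and 2.99 CPM in fWBI animals and 5.05, 6.76, 6.75, 6.72 and 4.95 CPM in control animals. Its control values were tight and its fWBI values all lay under them (-1.83 ± 0.31, adjusted p = 0.00836). ENPEP, an aminopeptidase that cleaves angiotensin and is found on pericytes, changed by -1.81 ± 0.22 (adjusted p = 0.000532), TENT5B, a poly(A) polymerase, by -1.73 ± 0.25 (adjusted p = 0.00182), and TIMP4, an inhibitor of matrix metalloproteinases, by -1.02 ± 0.18 (adjusted p = 0.0114). Of the 11 tested pericyte and smooth muscle genes CSPG4 alone fell, and the summed level of that list was 236 to 335 CPM in fWBI animals and 228 to 312 CPM in control animals. An ID with no symbol, ENSMMUG00000015707, had 12.9, 20.3, 16.1, 7.96 and 20.0 CPM in fWBI animals and 92.4, 73.9, 112, 92.7 and 63.6 CPM in control animals (-2.50 ± 0.21, adjusted p = 1.97e-05), so P2RY12 and this ID had the smallest adjusted p-values of the comparison.

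**Figure D2:**
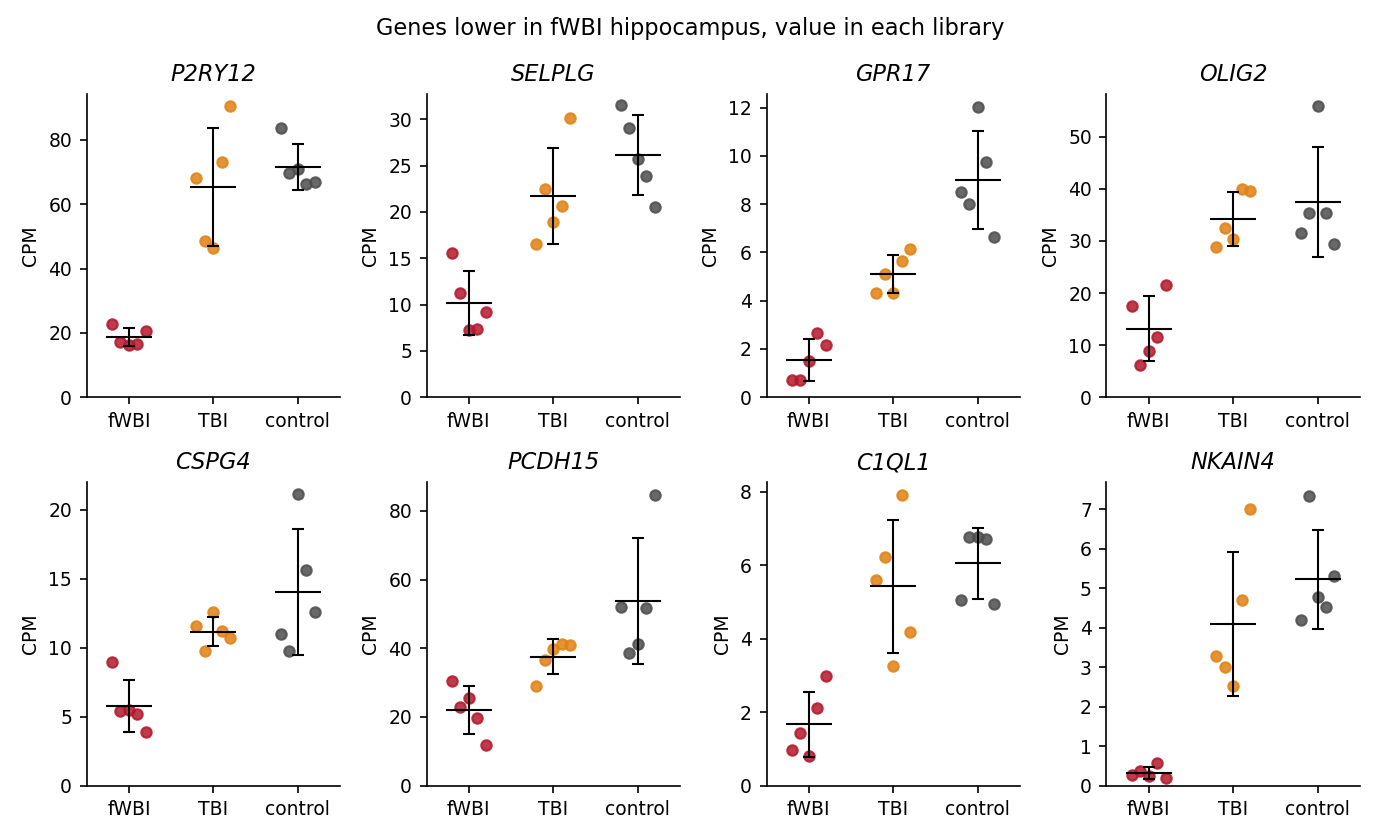
Level of 8 genes that were lower in fWBI hippocampus, in CPM on an axis that starts at 0, with 1 point per library and the mean ± SD as a black bar, for fWBI, TBI and control (n = 5 each). For P2RY12 the 5 fWBI libraries sit between 16.4 and 22.7 CPM, under all TBI and control libraries, and for NKAIN4 they sit near 0.

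Some genes of antigen presentation through MHC class II rose in fWBI hippocampus. CD74 (ENSMMUG00000009113), the invariant chain that guides MHC class II molecules to the compartment where they load peptides, had 113, 117, 132, 53.9 and 157 CPM in fWBI animals and 14.3, 14.3, 20.1, 9.19 and 4.23 CPM in control animals. The lowest fWBI library held more than the highest control library, and the fold change was 3.19 ± 0.39 (adjusted p = 0.000794). MAMU-DRB1, a beta chain of macaque MHC class II, had 64.6, 106, 92.7, 44.8 and 117 CPM in fWBI animals and 12.6, 19.4, 9.74, 11.5 and 4.11 CPM in control animals (2.89 ± 0.34, adjusted p = 0.000577). MAMU-DPA, an alpha chain, had 46.5 to 70.2 CPM in fWBI animals and 5.19 to 12.2 CPM in control animals (2.72 ± 0.31, adjusted p = 0.000465). Both separated the groups completely; as MHC genes have near-identical copies that may share reads, which copy the reads came from is uncertain. CIITA, the transcription factor that switches on MHC class II genes, had 3.19, 4.08, 3.95, 1.71 and 4.02 CPM in fWBI animals and 0.863, 1.38, 1.09, 1.51 and 0.725 CPM in control animals (1.59 ± 0.34, adjusted p = 0.0372). The CIITA call was lost with any library left out except fWBI animal 4 or control animal 2 (adjusted p = 0.0573 to 0.115), and also without the pair rich in choroid plexus RNA (adjusted p = 0.074). Of the 11 tested genes of MHC class II and antigen presentation 3 rose (CD74, MAMU-DRB1 and CIITA) and 0 fell (median 0.27), and the list does not hold MAMU-DPA under that symbol. The costimulatory gene CD86 (0.27) and the protease gene CTSS (0.40), picked after their values were seen, did not pass. None of the 9 tested genes of MHC class I and peptide loading passed (median 0.16).

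Some scavenger and phagocytic receptors rose with them. MSR1, a scavenger receptor for modified lipoproteins, had 6.02, 8.76, 9.75, 9.50 and 11.6 CPM in fWBI animals and 1.23, 2.52, 1.09, 0.960 and 0.725 CPM in control animals (2.78 ± 0.29, adjusted p = 0.000111). CLEC7A, the beta-glucan receptor dectin-1, which activated microglia also carry, had 7.61, 12.8, 10.4, 6.33 and 12.1 CPM in fWBI animals and 2.10, 1.83, 0.199, 0.686 and 0.241 CPM in control animals (3.28 ± 0.52, adjusted p = 0.00502). For both receptors the lowest fWBI value was over 2 times the highest control value. LGALS3, the sugar-binding protein galectin-3, had 14.7 to 27.7 CPM in fWBI animals and 5.67 to 8.02 CPM in control animals (1.38 ± 0.19, adjusted p = 0.00147). MSR1, CLEC7A and LGALS3 were the 3 of 15 tested genes of the activated and lipid-laden phagocyte list that rose, 0 fell, and the median was 0.36. The lipid transport genes APOE (0.30) and APOC1 (0.94), the lipase LPL (0.00) and the secreted SPP1 (0.36) of the same list, picked after their values were seen, did not pass.

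Genes of perivascular macrophages and monocytes made up the list with the largest share of calls among those with at least 10 tested genes: 5 of 11 rose, 0 fell, and the median was 0.76. VCAN, also held by this list, lay at -0.76 without passing, and in prefrontal cortex and white matter it was lower after fWBI (-0.93, adjusted p = 0.0151, and -1.41, adjusted p = 0.000253). CD14, the co-receptor for bacterial lipopolysaccharide, had 28.1, 48.8, 32.8, 33.6 and 41.0 CPM in fWBI animals and 9.73, 10.5, 2.78, 7.41 and 6.88 CPM in control animals (2.31 ± 0.25, adjusted p = 0.000188). LYZ, which codes for lysozyme, had 22.0, 26.3, 22.9, 17.1 and 16.9 CPM in fWBI animals and 3.94, 7.10, 4.07, 3.57 and 2.90 CPM in control animals (2.27 ± 0.23, adjusted p = 7.56e-05). Neither gene had a control library within the fWBI range. SIGLEC1, a sialic acid receptor of macrophages, had 8.45 to 15.2 CPM in fWBI animals and 1.72 to 4.07 CPM in control animals (1.95 ± 0.26, adjusted p = 0.00131). STAB1, a scavenger receptor of macrophages and sinus endothelium, had 79.7 to 100.2 CPM in fWBI animals and 42.0 to 62.0 CPM in control animals (0.96 ± 0.16, adjusted p = 0.00621). MRC1, the mannose receptor of perivascular macrophages and the fifth gene of this list, which was picked after its values were seen, had 37.1 to 53.6 CPM in fWBI animals and 23.5 to 31.8 CPM in control animals (0.76 ± 0.13, adjusted p = 0.00845). All 5 separated the groups, while CD163, another marker of perivascular macrophages, stood at 0.66 (adjusted p = 0.18) and was picked after its values were seen.

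A pair of receptors that read signals from the surroundings rose too. GPR65, which senses acid and is carried by immune cells, had 2.92, 3.00, 1.63, 2.68 and 2.90 CPM in fWBI animals and 0.121 to 0.688 CPM in control animals (2.77 ± 0.44, adjusted p = 0.00502). CD200R1, the inhibitory receptor by which myeloid cells read CD200 on neurons, had 1.50 to 3.46 CPM in fWBI animals and 0.123 to 0.802 CPM in control animals (2.41 ± 0.40, adjusted p = 0.00766). Neither gene had overlapping groups. Among pattern and Fc receptors 4 of 15 rose and 0 fell (median 0.74): CD14 and CLEC7A, and the receptors TLR8 for RNA and TLR2 for bacterial lipids. TLR8 changed by 1.28 ± 0.23 (adjusted p = 0.00996) and TLR2 by 1.26 ± 0.26 (adjusted p = 0.026). The TLR2 call was lost without fWBI animal 2 or 5 or control animal 1, 4 or 5 (adjusted p = 0.0526 to 0.0796). The complement list had 3 of 13 genes higher and 0 lower (median 0.63). C3AR1, the receptor for the C3a fragment, had 7.39 to 12.0 CPM in fWBI animals and 2.54 to 5.05 CPM in control animals (1.44 ± 0.20, adjusted p = 0.00147). CFB, factor B of the alternative pathway, had 12.1 to 19.3 CPM in fWBI animals and 5.35 to 9.98 CPM in control animals (1.13 ± 0.21, adjusted p = 0.0114). C1QC, a chain of the C1q complex that tags synapses and debris, had 93.0, 74.6, 74.2, 51.7 and 66.6 CPM in fWBI animals and 33.0, 48.4, 30.2, 26.5 and 19.8 CPM in control animals (1.19 ± 0.25, adjusted p = 0.0357). The highest control value of C1QC, in control animal 2, came close to the lowest fWBI value, and the call was lost without any 1 library except fWBI animal 4 or control animal 2 (adjusted p = 0.0621 to 0.104). C3 itself, picked after its values were seen, stood at -0.69 (adjusted p = 0.36).

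A few chemokines and interferon-stimulated genes passed. CCL8, a chemokine for monocytes, had 1.95, 6.00, 2.79, 2.60 and 2.43 CPM in fWBI animals and 1.11, 0.458, 0.497, 0.274 and 0.483 CPM in control animals (2.44 ± 0.48, adjusted p = 0.0209). CXCL10, a chemokine induced by interferon, had 1.50, 0.720, 2.32, 1.22 and 1.40 CPM in fWBI animals and 0.246, 0.458, 0.397, 0.137 and 0.241 CPM in control animals (2.19 ± 0.43, adjusted p = 0.0209). Both were low in every library, and each call was lost with some single libraries left out: fWBI animal 2 or control animal 3, 4 or 5 for CCL8 (adjusted p = 0.0528 to 0.0667), and fWBI animal 3 or control animal 1, 4 or 5 for CXCL10 (adjusted p = 0.0503 to 0.073). They were the 2 of 9 tested chemokines and receptors that rose (0 fell, median 0.44). Of 17 interferon-stimulated genes 2 rose and 0 fell (median 0.40): OAS2, a sensor of double-stranded RNA (1.33 ± 0.24, adjusted p = 0.0114), and IFI44 (1.07 ± 0.21, adjusted p = 0.0223). IFI44 did not pass without fWBI animal 2 or control animal 1, 4 or 5 (adjusted p = 0.058 to 0.0741). None of 14 cytokines and receptors passed (median 0.20).

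Genes of lymphocytes were mostly too low to test. Of the T and NK cell list 4 of 14 genes in the table were tested and 0 passed (median 0.13). The summed level of the 14 was 28.1 to 51.5 CPM in fWBI animals and 12.1 to 36.7 CPM in control animals. CD4 made up most of the fWBI sums, and the 13 other genes together had 5.1 to 10.7 CPM in fWBI animals and 3.75 to 10.9 CPM in control animals. CD4, which macaque microglia and macrophages may carry as well as T cells, had 32.4, 39.1, 30.9, 23.4 and 39.8 CPM in fWBI animals and 4.68, 5.84, 26.2, 15.8 and 8.57 CPM in control animals. The library of control animal 3 lay inside the fWBI range, and the change of 1.43 ± 0.37 did not pass (adjusted p = 0.109). CD4 passed in 3 of 21 alternative fits. These were the fit without that library (1.93, adjusted p = 0.00696), the DESeq2 test (1.43, adjusted p = 0.00641) and limma-voom (1.735, adjusted p = 0.0273). CD8A had 0.812 to 3.72 CPM in fWBI animals and 0.604 to 7.15 CPM in control animals (-0.90 ± 0.45, adjusted p = 0.478). FCRL5, an Fc receptor-like protein of B cells, had 1.59, 2.64, 2.67, 2.27 and 2.71 CPM in fWBI animals and 0.370 and 0.344 CPM in control animals 1 and 2, and it was listed at 0 in the other 3 control libraries. The test for FCRL5 gave an adjusted p of 0.0114, and its fitted fold change is not given because it depends on the prior count. The B and plasma cell list summed to 62.7 to 91.3 CPM in fWBI animals and 67.9 to 78.3 CPM in control animals, with DERL3 at 0 in all 10 libraries. An ID with no symbol, ENSMMUG00000008972, had 66 counts over the fWBI libraries and 0 over the control libraries. Its fWBI mean was 18.1-fold above a floor of 3 counts over the control group (0.0706 CPM). This allows for counting error in the control group only. It covers neither counting error in the 66 fWBI counts nor the spread between animals.

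Some collagens and fibronectin rose in fWBI hippocampus. COL1A1, a chain of the main fibrillar collagen, had 25.3, 30.6, 41.7, 16.3 and 40.2 CPM in fWBI animals and 6.04, 2.18, 2.88, 8.09 and 3.62 CPM in control animals (2.77 ± 0.33, adjusted p = 0.000556). COL3A1, its partner in soft tissue and vessel walls, had 55.3, 199, 160.2, 63.7 and 258 CPM in fWBI animals and 36.2, 17.5, 14.2, 22.1 and 19.8 CPM in control animals (2.75 ± 0.44, adjusted p = 0.00766). The groups did not overlap for either, although the fWBI values of COL3A1 fell into a lower pair (animals 1 and 4) and 3 values at least 2 times higher. COL4A1, a collagen of the vascular basement membrane, had 45.5 to 63.4 CPM in fWBI animals and 22.1 to 36.7 CPM in control animals (0.92 ± 0.12, adjusted p = 0.00138). COL6A2 (1.16 ± 0.19, adjusted p = 0.00669) and COL6A3 (1.78, adjusted p = 0.011), chains of the beaded filament collagen around vessels, also rose, the second being picked after its values were seen. COL6A2 did not pass in the fit of all 45 libraries (adjusted p = 0.159), and COL6A3 did not without the pair rich in choroid plexus RNA (adjusted p = 0.0582). In all 5 of 15 tested collagens rose and 0 fell, 15 of 15 lay above 0, and the median was 0.67. FN1, fibronectin, had 209.8, 274, 262, 219 and 257 CPM in fWBI animals and 119.7, 76.3, 151, 114 and 89.8 CPM in control animals, which did not overlap (1.15 ± 0.17, adjusted p = 0.00258).

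Other matrix genes rose as well. POSTN, the matrix protein periostin, had 5.67, 8.76, 8.48, 2.84 and 10.6 CPM in fWBI animals and 1.03 to 2.09 CPM in control animals (2.15 ± 0.39, adjusted p = 0.0114). MMP2, gelatinase A, had 14.6 to 39.8 CPM in fWBI animals and 3.84 to 12.8 CPM in control animals (1.75 ± 0.33, adjusted p = 0.0184), and did not pass without control animal 1, 4 or 5 (adjusted p = 0.0536 to 0.0549). LUM, the collagen-binding proteoglycan lumican, had 32.6 to 125 CPM in fWBI animals and 10.0 to 29.8 CPM in control animals (1.97 ± 0.42, adjusted p = 0.0453), and of the fits with a library left out it passed only in those without fWBI animal 1 or 4 (adjusted p = 0.0549 to 0.132 without each of the others). CPXM1, a carboxypeptidase-like protein of the matrix, changed by 2.50 and lost its call without fWBI animal 2 or 5 or control animal 1 (adjusted p = 0.0503 to 0.0597). FN1, POSTN, MMP2 and LUM were the 4 of 17 tested matrix glycoproteins and matrix enzymes that rose (0 fell, median 0.77). COL1A1 and LUM were the 2 of 13 tested fibroblast and meninges genes that rose (0 fell, median 0.37). Genes of that last list summed to 439, 703, 597, 395 and 967 CPM in fWBI animals and 448, 631, 267, 342 and 320 CPM in control animals, so the totals overlapped and control animal 2 and fWBI animal 5, the libraries richest in choroid plexus RNA, were the highest of their groups. Without those 2 libraries the median of the fibroblast list was 0.65, 5 collagens rose, with COL18A1 (1.23, adjusted p = 0.0193, picked after its values were seen) in place of COL6A3, and LUM (adjusted p = 0.137), CPXM1 (adjusted p = 0.0695) and POSTN (adjusted p = 0.0533) did not pass. What part such tissue had in the rises of matrix genes was not tested.

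Among 21 tested genes of endothelium and the blood-brain barrier 3 rose and 0 fell (median 0.27). PECAM1, the junction protein CD31 of endothelium that leukocytes also carry, had 23.7 to 31.0 CPM in fWBI animals and 13.5 to 20.2 CPM in control animals (0.73 ± 0.13, adjusted p = 0.01). CD93 (1.47 ± 0.29, adjusted p = 0.0244) and CLEC1A (1.77 ± 0.35, adjusted p = 0.0208), surface lectins of endothelial and myeloid cells, passed as well. CD93 was lost without fWBI animal 1, 3 or 5 or control animal 1, 4 or 5 (adjusted p = 0.0501 to 0.0674), and CLEC1A without fWBI animal 2 or control animal 5 (adjusted p = 0.056 and 0.0682). Common endothelial markers, such as CDH5 (0.30), VWF (0.27) and the glucose transporter SLC2A1 (0.28), picked after their values were seen, did not pass. The summed endothelial level was 778 to 876 CPM in fWBI animals and 652 to 812 CPM in control animals. Red blood cell genes summed to no more than 2.92 CPM in any fWBI library and no more than 1.0 CPM in any control library.

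**Figure D3:**
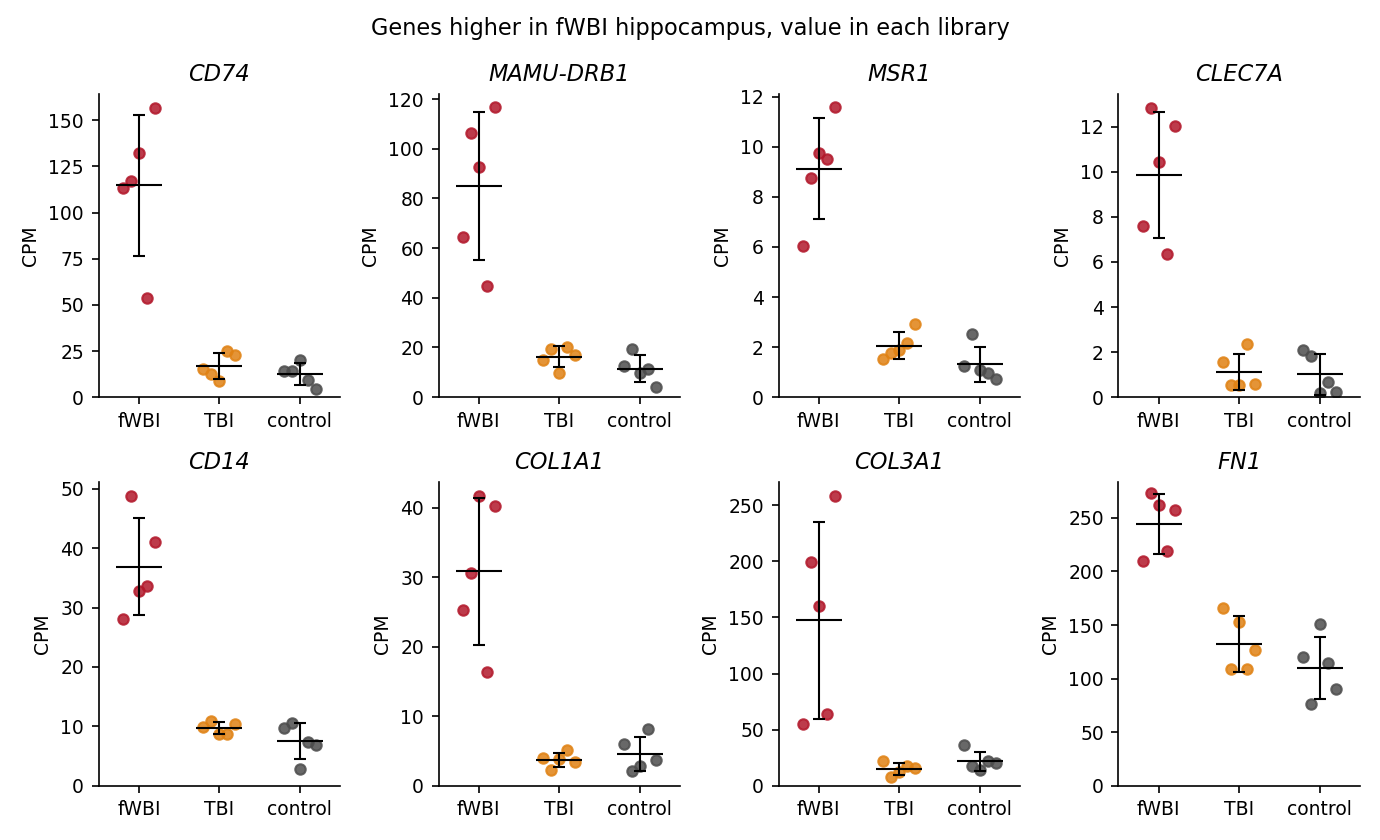
Level of 8 genes that were higher in fWBI hippocampus, in CPM on an axis that starts at 0, with 1 point per library and the mean ± SD as a black bar, for fWBI, TBI and control (n = 5 each). For CD74 the fWBI libraries reach 53.9 to 157 CPM while TBI and control libraries stay at or under 25.1 CPM, and the fWBI points of COL3A1 spread from 55.3 to 258 CPM.

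Neuronal genes showed few calls with all 15 libraries in the fit. Of 15 pan-neuronal genes, 21 of excitatory neurons and the postsynapse, 19 of inhibitory neurons, 10 immediate early genes and 17 of dentate granule cells and hippocampal subfields, 0 passed in each list, with medians of 0.02, -0.28, 0.06, -0.36 and -0.26. In the excitatory list 3 of 21 genes and in the dentate list 3 of 17 genes lay above 0, beside 48.2% of all genes. PROX1 had 28.8 to 79.0 CPM in fWBI animals and 32.3 to 115 CPM in control animals (-0.29 ± 0.34, adjusted p = 0.816), and SLC17A7, the glutamate transporter of excitatory neurons, had 159 to 514 CPM in fWBI animals and 139 to 625 CPM in control animals (-0.44 ± 0.39, adjusted p = 0.743). Both spread widely within each group and overlapped. SNAP25, a synaptic vesicle fusion protein, had 1839 to 2108 CPM in fWBI animals and 1817 to 2297 CPM in control animals (-0.06 ± 0.08, adjusted p = 0.845). In the list of adult neurogenesis and neural progenitors 2 of 18 genes fell and 0 rose (median -0.10): SOX4 and NEUROD2, a transcription factor of maturing excitatory neurons. NEUROD2 had 44.9, 43.0, 45.4, 42.6 and 36.0 CPM in fWBI animals and 67.0, 53.4, 49.7, 67.6 and 74.4 CPM in control animals (-0.56 ± 0.11, adjusted p = 0.026). Its groups did not overlap, but the call was lost without fWBI animal 2, 4 or 5 or control animal 1, 4 or 5 (adjusted p = 0.0588 to 0.0942) and in a fit of all 45 libraries (adjusted p = 0.829). DCX (-0.25), the marker of young neurons, and NES (0.16), the marker of progenitors, did not pass and were picked after their values were seen.

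Reactive astrocyte genes leaned upwards without a call: 0 of 15 passed, 14 of 15 lay above 0, and the median was 0.52. GFAP, the filament protein that astrocytes increase after injury, had 1179 to 1959 CPM in fWBI animals and 828 to 1482 CPM in control animals (0.42 ± 0.18, adjusted p = 0.372). VIM, another filament gene of the list, stood at 0.84 ± 0.19 (adjusted p = 0.0648). It passed in 5 of 21 alternative fits, among them the DESeq2 test (adjusted p = 0.00328). SERPINA3, an acute-phase protease inhibitor of reactive astrocytes picked after its values were seen, had 88.8, 169.9, 88.7, 91.8 and 131 CPM in fWBI animals and 28.0, 51.2, 27.8, 8.51 and 9.06 CPM in control animals. The SERPINA3 groups did not overlap, but control values spread 6-fold and the change of 2.18 ± 0.49 had an adjusted p of 0.0607. Genes of the direct response to DNA damage showed nothing that passed at this time point: 0 of 13 p53 targets (median 0.17), 0 of 26 DNA repair genes (median 0.04) and 0 of 19 cell cycle genes (median 0.03). BAX, a pro-apoptotic p53 target, had 9.87 to 14.1 CPM in fWBI animals and 9.93 to 11.7 CPM in control animals (0.15 ± 0.12, adjusted p = 0.707). Of 8 tested senescence and secreted factor genes 0 passed (median 0.46). The lists of lysosome and phagosome and of iron, haem and antioxidant genes had 1 rise each: CYBB, the catalytic subunit of the phagocyte NADPH oxidase (1.02 ± 0.21, adjusted p = 0.0327), and SLC7A11, the cystine-glutamate exchanger (0.52 ± 0.11, adjusted p = 0.0357). CYBB was lost without fWBI animal 1, 2 or 5 or control animal 3, 4 or 5 (adjusted p = 0.0581 to 0.0995), and SLC7A11 without fWBI animal 1, 3 or 5 or control animal 1, 3, 4 or 5 (adjusted p = 0.0528 to 0.105). Respiratory chain genes (0 of 19, median 0.04) and cholesterol synthesis genes (0 of 14, median -0.06) had no call.

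**Figure D4:**
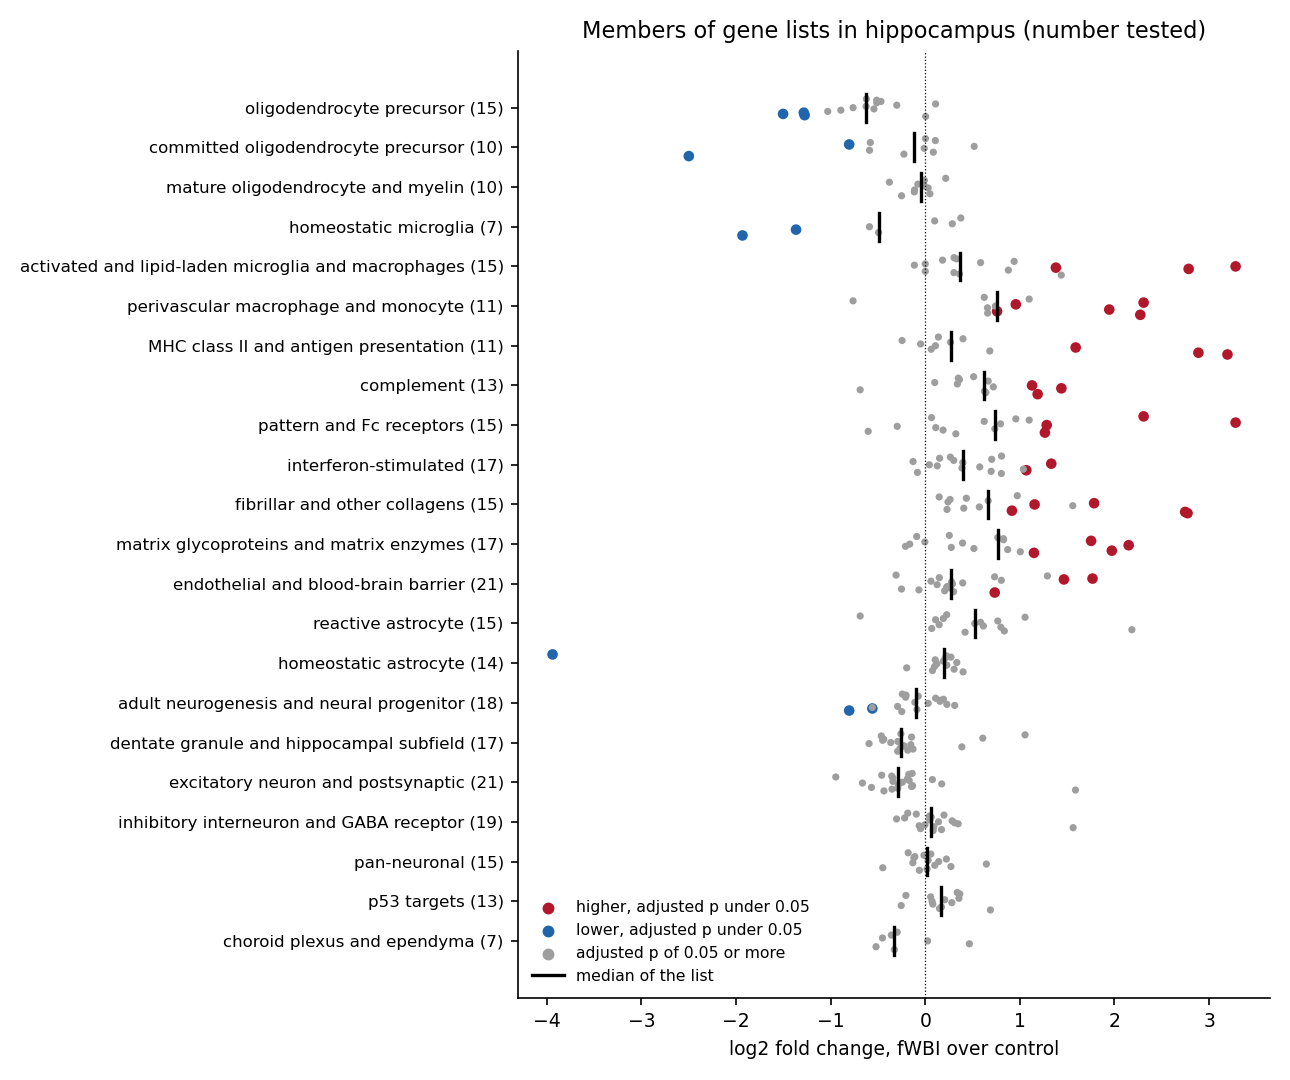
Each point is a tested gene of 1 of 22 lists (number tested in brackets), placed by its log2 fold change in hippocampus, fWBI over control, in red or blue where it passed the threshold and grey where it did not, with the median of the list as a black bar. Precursor and homeostatic microglia lists reach to the left, macrophage, MHC class II, complement and collagen lists reach to the right, and the medians of the neuronal and myelin lists lie between -0.28 and 0.06.

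The calls were checked under 21 other settings and omissions, and 41 of the 111 genes passed in all of them. P2RY12, SELPLG, NKAIN4, GPR17, C1QL1, ENPEP and TENT5B were among these falls, and CD74, MAMU-DRB1, MAMU-DPA, MSR1, CLEC7A, CD14, LYZ, SIGLEC1, C3AR1, LGALS3, COL1A1, COL4A1, FN1 and PECAM1 among these rises. Of the 54 named genes past the threshold 35 kept their call with any single library left out. The number of calls was 70 without control animal 1, 73 without fWBI animal 2 and 264 without control animal 2, the library with the most choroid plexus RNA, and 105 of the 111 were among the 264. Of the 264, 147 were higher and 117 lower, beside 79 and 32 in the main fit. The list counts of this fit thus stand beside more calls over all genes. Without control animal 2, 5 of 15 precursor genes fell. Rises were found in 7 of 15 collagens and 6 of 17 matrix glycoproteins and enzymes. They also included 4 of 17 interferon-stimulated and 2 of 15 reactive astrocyte genes. In the same fit 2 of 21 excitatory genes (median -0.37), 1 of 17 dentate and subfield genes (-0.34) and 1 of 10 immediate early genes (-0.46) fell. Pan-neuronal (0 of 15) and inhibitory genes (0 of 19) had no call.

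The TBI animals were used to ask whether hippocampus of fWBI animals also differed from that of the other irradiated group. Dose, number of fractions, field and time since exposure all differ between those groups, so a difference belongs to no single one of them. Of 15357 genes 52 passed (0.339%), 38 higher (0.247%) and 14 lower (0.0912%) in fWBI animals. P2RY12 had 16.4 to 22.7 CPM in fWBI animals, all under the 68.2, 48.6, 46.4, 73.1 and 90.7 CPM of TBI animals (-1.80 ± 0.17, fWBI over TBI, adjusted p = 9.92e-05). NKAIN4 had 2.52 to 7.01 CPM in TBI animals (-3.59 ± 0.36, adjusted p = 0.00013), GPR17 was at -1.68 ± 0.30 (adjusted p = 0.0188) and C1QL1 at -1.68 ± 0.31 (adjusted p = 0.0238). RBM46, an RNA-binding protein known from germ cells, was lower than in TBI animals (-1.56 ± 0.27, adjusted p = 0.0123) and stood at 0.17 against control. CD74 had 8.92 to 25.1 CPM in TBI animals (2.76 ± 0.37, adjusted p = 0.00293), and COL3A1 had 7.43 to 22.1 CPM there (3.29 ± 0.45, adjusted p = 0.00297). CLEC7A (3.11 ± 0.50, adjusted p = 0.00862), COL1A1 (3.05 ± 0.33, adjusted p = 0.000341) and MAMU-DRB1 (2.38 ± 0.33, adjusted p = 0.00293) rose over TBI as well. The TBI ranges of these 5 rises overlapped those of control animals and did not reach the fWBI ranges. None of the 13 complement genes passed against TBI (median 0.40): C1QC had 33.6 to 77.0 CPM in TBI animals, which overlapped the fWBI range. This comparison uses the same fWBI libraries as the one against control, so the values stand side by side and are not independent.

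The same animals' prefrontal cortex and white matter were used to see whether fWBI differed from control in the same way outside hippocampus. The libraries are separate, but the animals are shared. Of the 79 genes higher in hippocampus 73 were tested in prefrontal cortex, where 44 rose, and of the 32 lower genes 14 fell, while 0.798% of all genes tested there rose and 0.354% fell. The 58 shared calls were 52.3% of those of hippocampus and 32.4% of the 179 calls in prefrontal cortex, where 1.15% of genes passed. In white matter, where 2537 genes passed (16.7%), 56 of 76 tested rises and 21 of 31 tested falls were called the same way, where 8.8% of all genes rose and 7.86% fell. These 77 were 69.4% of the hippocampal calls and 3.04% of those in white matter. None of them was called the opposite way in either region. In white matter 67 of the 76 tested rises and 30 of the 31 tested falls had the same sign, and POSTN, MRC1, SELPLG, CPXM1 and LUM were among those that did not. In all 3 regions 42 genes passed, 32 higher and 10 lower. P2RY12 stood at -1.93 in hippocampus, -1.75 ± 0.18 in prefrontal cortex and -1.36 ± 0.21 in white matter, and GPR17 at -2.50, -3.08 ± 0.26 and -2.52 ± 0.25 in that order. CD74 stood at 3.19, 2.82 ± 0.31 and 3.05 ± 0.22, and FN1 at 1.15, 1.47 ± 0.22 and 1.49 ± 0.23. For none of these 4 did the difference between hippocampus and white matter pass (adjusted p = 0.115 for P2RY12, 0.994 for GPR17, 0.854 for CD74 and 0.48 for FN1).

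**Figure D5:**
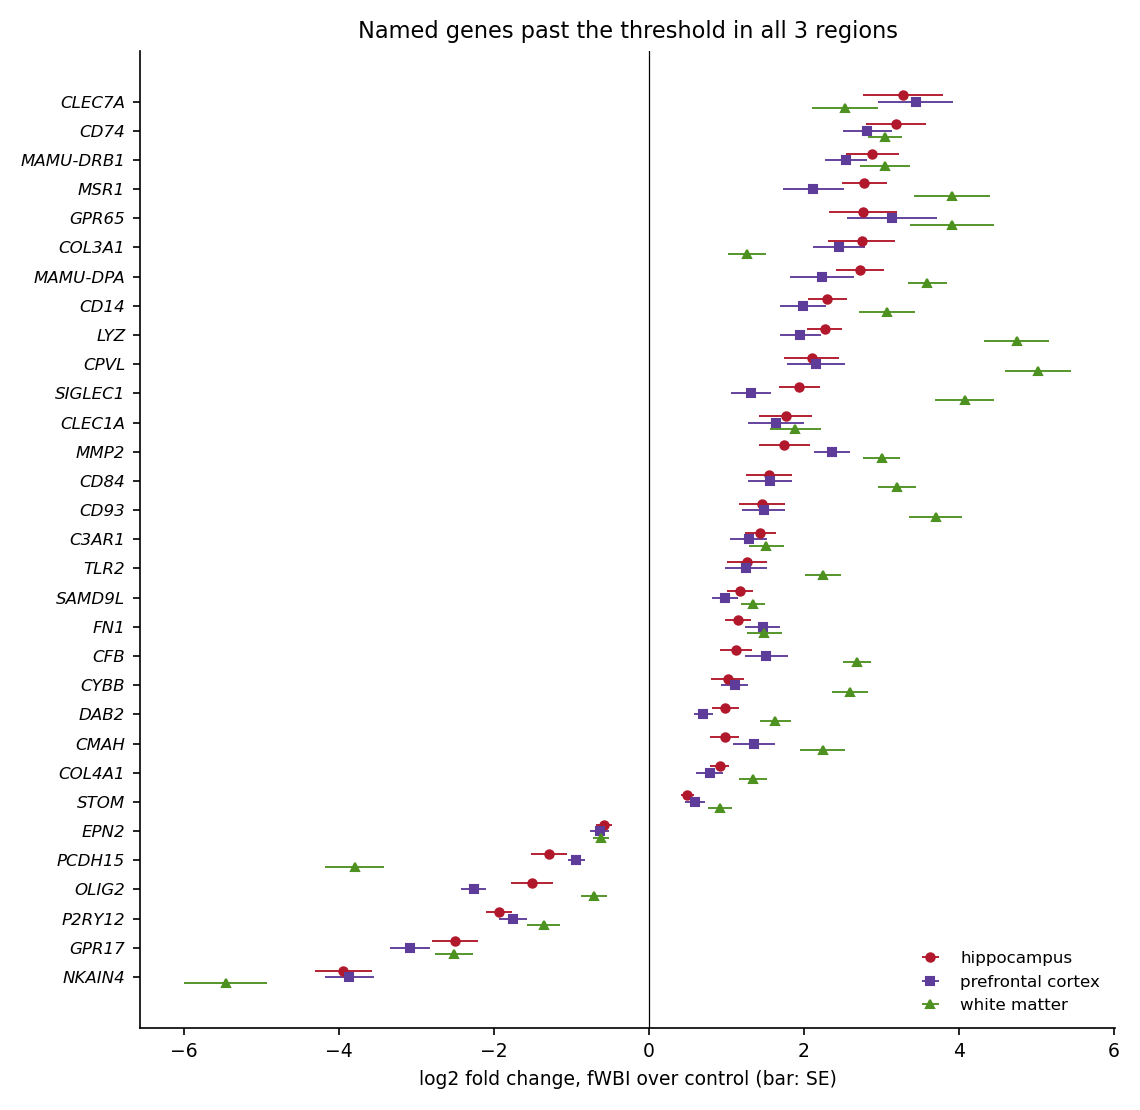
Log2 fold change, fWBI over control, with its SE as a bar, in hippocampus (red circles), prefrontal cortex (purple squares) and white matter (green triangles) for the 31 genes with a symbol among the 42 that passed in all 3 regions. The points of hippocampus and prefrontal cortex lie close together for most genes, and LYZ, SIGLEC1, CPVL and CD93 lie much further right in white matter.

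Whether the change itself differed between regions was tested on all 45 libraries with the animal as a block. Between hippocampus and prefrontal cortex 0 of 16614 genes passed by edgeR (0%), the smallest adjusted p was 0.217, and 299 genes had an unadjusted p under 0.05 (1.8%). No other tool was run for that difference. The 1.8% is under 0.05, the share expected if nothing differed, so the 0 calls do not show that these regions changed alike. Of the genes called in hippocampus 7 were among the 299, C1QL1, SELPLG, POSTN and OLIG2 being examples picked after their values were seen. Between hippocampus and white matter 1488 genes passed (8.96%), 802 with a higher (4.83%) and 686 with a lower log2 fold change in hippocampus than in white matter (4.13%). Among named genes the lowest differences were CDH1 (-6.85), CHRNB4 (-6.22), FCGR2A (-6.04), FFAR4 (-6.00) and GPNMB (-5.63). The highest were MYT1 (3.92), TNR (3.83), MKX (3.32), CA10 (3.27) and SNORD114-7 (3.25). None of these genes passed against control in hippocampus itself (adjusted p = 0.111 to 0.835). CHRNB4, FFAR4, MKX and SNORD114-7 did not pass the count filter of the fit of white matter alone. Their differences thus rest on low counts there (SE 1.39, 1.23, 0.53 and 0.72). Control white matter of animals 1 and 3 stood apart, with a mean log2(CPM + 1) of pan-neuronal genes of 8.55 and 7.52, where fWBI libraries had 4.91 to 5.71 and the other control libraries 5.13 to 5.45. Without these 2 libraries 925 genes passed.

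Of the 111 genes called in hippocampus 39 differed from white matter: 19 rose less and 11 rose more in hippocampus, 5 fell less and 4 fell more. Without the 2 control libraries of white matter 26 of the 111 differed. Several myeloid genes rose less in hippocampus. LYZ stood at 2.27 in hippocampus and 4.75 ± 0.42 in white matter (difference -2.40, adjusted p = 2.44e-05, and 0.000391 without the 2 libraries), and SIGLEC1 at 1.95 and 4.08 ± 0.38 (difference -2.18, adjusted p = 0.000482, and 0.00978 without them). The activated and lipid-laden phagocyte list had 3 of 15 genes higher in hippocampus and 12 of 15 in white matter, also without the 2 libraries, with medians of 0.36 and 1.71 (1.49 without them). Complement had 3 of 13 genes higher in hippocampus and 11 of 13 in white matter (9 without the 2 libraries). Over all genes tested 0.514% were higher in hippocampus and 8.8% in white matter (1340 genes, and 1124 without the 2 libraries). More calls in a list of white matter thus stand beside more calls over all genes. VIM, the filament protein vimentin of reactive astrocytes and other glia, had a smaller change in hippocampus, 0.84 ± 0.19 (adjusted p = 0.0648), than in white matter, 2.94 ± 0.24 (difference -2.09, adjusted p = 4.73e-07, and 4.5e-06 without the 2 libraries).

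Some matrix genes had the larger change in hippocampus. POSTN stood at 2.15 in hippocampus and at -1.02 ± 0.50 in white matter, where it did not pass (difference 3.06, adjusted p = 0.000448). Without the 2 libraries it stood at 0.20 in white matter, and the difference was 1.99 (adjusted p = 0.0262). CPXM1 stood at 2.50 and -0.71 (difference 3.22, adjusted p = 0.00269, and 0.0109 without them), while the differences of COL1A1 (1.80, adjusted p = 0.0295) and COL3A1 (1.28, adjusted p = 0.0307) were lost without the 2 libraries (adjusted p = 0.0906 and 0.102). Collagens had 5 of 15 genes higher in hippocampus and 2 of 15 in white matter (3 without the 2 libraries), beside 0.514% and 8.8% of all genes. Of the falls, SELPLG was lower in hippocampus and not in white matter (0.14 ± 0.23; difference -1.53, adjusted p = 0.000257, and 0.00343 without the 2 libraries). PCDH15 fell less in hippocampus than in white matter, where it stood at -3.79 ± 0.38 (difference 2.54, adjusted p = 8.36e-05, and 0.000107 without them). Oligodendrocyte precursor genes fell in 3 of 15 cases in hippocampus and 12 of 15 in white matter (11 without the 2 libraries), with medians of -0.62 and -1.41. Over all genes tested 0.208% fell in hippocampus and 7.86% in white matter (1197 genes, and 550 without the 2 libraries).

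A remaining 18 genes passed in hippocampus and in neither other region. They hold C1QL1, RGS10, NEUROD2, MRC1, COL6A2, POSTN and SLC7A11, and BAIAP2, a scaffold protein of dendritic spines. BAIAP2 changed by -0.65 ± 0.14 (adjusted p = 0.0422), and passed in none of the fits without fWBI animal 2, 3, 4 or 5 or control animal 1, 3, 4 or 5 (adjusted p = 0.0554 to 0.133). Passing in 1 region alone does not make a change particular to it. In prefrontal cortex RGS10 stood at -1.004 (adjusted p = 0.0538) and BAIAP2 at -0.701 (adjusted p = 0.08735), both larger falls than in hippocampus. MRC1 stood there at 0.66 (adjusted p = 0.0507) and COL6A2 at 0.903 (adjusted p = 0.0596), just short of passing. Smaller changes than in hippocampus were seen there for NEUROD2 (-0.128, adjusted p = 0.584) and SLC7A11 (0.379, adjusted p = 0.229). C1QL1 stood at -1.83 in hippocampus, -0.48 ± 0.17 in prefrontal cortex and -0.58 ± 0.26 in white matter, and its difference from white matter was -1.25 (adjusted p = 0.0153, and 0.0627 without the 2 control libraries). POSTN, with 0.46 ± 0.27 in prefrontal cortex, and MRC1, with -0.16 ± 0.24 in white matter (difference 0.86, adjusted p = 0.0188, and 0.00392 without the 2 libraries), were the other genes with a symbol among these 18 whose change differed from that in white matter, as it did for 2 IDs without one.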

How the data were processed

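Total RNA of 15 rhesus macaques was sequenced in 3 brain regions, 1 library per animal and region, after removal of ribosomal RNA with a stranded kit, per the labels' protocols. What the authors deposited was a single table of unscaled read counts, with 30246 gene IDs and 45 libraries. No other file was used. FastQC, STAR, featureCounts and DESeq2, are named without a version by the submitters' processing notes. Which genome build, annotation and strand option the authors used is not given in the sources used here, so no coordinates are printed, and reads of overlapping antisense genes or near-identical copies may not be told apart. Symbols were matched by ID for 15769 IDs. The others took 16.6 to 22.2% of all counts in fWBI libraries and 17.6 to 19.2% in control libraries.

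From the counts as deposited, the 15 hippocampus libraries of 3 groups were fitted together with TMM scaling, edgeR's default filter (minimum count 10) and its quasi-likelihood test (edgeR 4.0.16, R 4.3.3), two-sided, with Benjamini-Hochberg adjustment over all genes and a threshold of 0.05. The SE is the fold change divided by the square root of the F statistic. Other regions were fitted in the same way, and differences of the fWBI effect between regions in 1 fit of 45 libraries that blocks on animal, a pairing the labels give. Alternatives used DESeq2 1.42.0, limma-voom (limma 3.58.1), other filters, covariates and libraries left out. Replicates are separate animals within a group. Within a group, every pair of libraries differed by more than sampling noise (smallest chi-square per gene 7.12). The steps of the main hippocampus comparison were run on simulated counts with known changes, and the other fits were not.

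The 43 gene lists and the genes compared were chosen with earlier results of these data known, so no list is independent support. The 9 sex-linked genes listed had no ID in the table. Named genes were the 15 largest rises and 15 largest falls among calls that had a symbol, averaged 1 CPM or more and had all fWBI libraries on 1 side of the control mean, up to 4 calls per list by p, the first 2 tested genes of described lists with no call, and up to 5 per direction in other comparisons. Genes outside this rule are said to have been picked after their values were seen. Counts limit precision for genes of a few CPM.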

Additional observations from a re-analysis of the deposited data

Results flagged for a closer look

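In 13 of 156 groups of 5 libraries 1 library lay far from the other 4, with a gap of over 0.71 of the range of the group, and chance alone flags about 1 in 20 groups. Among genes past the threshold, GPR65 was 1.63 CPM in fWBI animal 3 (2.68 to 3.0 in the other fWBI animals), ENPEP 3.64 CPM in fWBI animal 5 (2.11 to 2.4), CIITA 1.71 CPM in fWBI animal 4 (3.19 to 4.08) and NEUROD2 36.0 CPM in fWBI animal 5 (42.6 to 45.4). OLIG2 was 55.8 CPM in control animal 3 (29.5 to 35.4 in the other control animals), LGALS3 5.67 CPM in control animal 1 (7.37 to 8.02) and SLC7A11 63.8 CPM in control animal 5 (78.2 to 84.3). Each of these genes kept groups that did not overlap.

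Among genes that did not pass, SLC17A6, the glutamate transporter of subcortical neurons, was 307 CPM in fWBI animal 5 and 33.9 to 52.1 CPM in the other fWBI animals. TAPBP was 15.5 CPM in fWBI animal 5 (19.0 to 20.2) and PSMB8 5.52 CPM in fWBI animal 2 (3.25 to 3.74), both genes of MHC class I peptide loading. CD8A was 0.604 CPM in control animal 5 (4.12 to 7.15 in the other control animals), GAD1, the GABA-making enzyme, 162 CPM in control animal 3 (209.7 to 228), and KL, a gene of the choroid plexus, 269 CPM in control animal 2 (23.5 to 41.3). The last is the library with the highest sum of choroid plexus genes.

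Values here are hippocampus minus white matter on the log2 scale, from the interaction term with animal as a block. The change after fWBI differed between these regions in 26 genes named from hippocampal fWBI against control. It was higher in hippocampus for COL1A1 (1.80), COL3A1 (1.28), CPXM1 (3.22), POSTN (3.06), LUM (1.98), PCDH15 (2.54), SLC22A3 (2.29), TIMP4 (1.31), C1QL2 (2.48) and SLC17A6 (2.83). It was lower in hippocampus for LYZ (-2.40), SIGLEC1 (-2.18), LGALS3 (-1.50), CFB (-1.56), C1QC (-1.61), CYBB (-1.54), CD93 (-2.13), PECAM1 (-0.81), MMP2 (-1.21), VIM (-2.09), GFAP (-0.85), TAPBP (-0.88), TOP2A (-1.42), SELPLG (-1.53), C1QL1 (-1.25) and OLIG2 (-0.87). Without control white matter of animals 1 and 3 the differences of COL1A1, COL3A1, C1QL1, OLIG2, TAPBP, GFAP, PECAM1, MMP2, LUM, TOP2A and SLC17A6 did not pass (adjusted p = 0.0627 for C1QL1 to 0.641 for SLC17A6).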

How the results depend on the processing

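The 111 calls of fWBI against control became 277 with the DESeq2 test, which held all 111, and 72 with only the 10 libraries compared, and lay between 70 and 264 with 1 library left out. Other settings gave 108 to 152 calls: size factors 111, no filter 108 and a filter at 1 CPM 113. Further fits were limma-voom with 113 (67 higher and 46 lower) and all 45 libraries with 123. With the mean log2 CPM of the myelin list as a covariate 124 genes passed. Chosen after seeing the data, the same mean of the choroid plexus list gave 152, and leaving out the 2 libraries richest in that RNA gave 132. Replicate numbers do not pair these animals (0 of 5 fWBI libraries correlated best with the control library of the same number), and with the replicate block 71 genes passed against control, 34 against TBI and 321 in prefrontal cortex.

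Against TBI the 52 calls became 135 with DESeq2 and 33 to 56 with 1 library left out. The 179 calls in prefrontal cortex became 466 with DESeq2 and 73 to 218 with 1 library left out, and the 2537 in white matter 1747 to 3038, and 1674 without 2 control libraries of white matter, an omission chosen after seeing the data. The difference between hippocampus and white matter had 1488 calls, 925 without those 2 libraries, and 837 to 1986 with 1 animal left out. Between hippocampus and prefrontal cortex 0 genes passed in each fit run. The cause of these shifts was not tested, apart from the fits with fewer libraries.

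Of 1132 values of the 54 named calls under alternatives, 959 kept the call, 173 lost it and 0 changed direction. Of 881 list medians 4 moved beyond the spread between animals. With 5 animals a group and 7356658 to 12541507 counts per library, small changes of genes at a few CPM could be missed.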
